A study of Mus musculus with 12 samples.

Results

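Cone photoreceptors turn light into an electrical signal with a set of proteins of their own, and the 10 genes described here encode the core of that set: Opn1sw, Opn1mw, Arr3, Gnat2, Gnb3, Gngt2, Pde6c, Pde6h, Cnga3 and Cngb3. They were listed by name, for their roles in this pathway. Each matched 1 row of a table of 53707 genes, and all 10 passed the filter on low counts and were tested. RNA was measured in retinal explants, that is, whole retinas kept alive in culture medium, from wild-type C57BL/6J mice at 28 days of age. The retinas were separated from the sclera and the retinal pigment epithelium and cultured for 48 hours in Neurobasal-A medium with B27 and N2 supplements that held 5 mM or 25 mM glucose, and this glucose concentration was the only difference between the groups that the labels give. Each group had 3 biological replicates with 2 technical replicates of each, 12 libraries in all, and every biological replicate had its first library in batch 1 and its second in batch 2.

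The libraries held between 17998905 and 36692484 estimated counts at 5 mM glucose and between 14815285 and 23129541 at 25 mM. The labels do not say whether the biological replicates came from different animals, so the p-values measure the spread between these samples, which may be technical. In a whole retina, fewer cones and less RNA per cone cannot be told apart. The rod genes named below summed to between 2470 and 6033 CPM in a replicate, and the summed level of 8 markers of the retinal pigment epithelium was between 3.15 and 5.47 CPM, that is, counts scaled to the size of the library. For the cone genes, the libraries of 25 mM replicate 2 and those of 5 mM replicate 1 stood furthest apart, and results that rest on these libraries are given with and without them.

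Light converts a cone opsin into a form that activates the cone transducin, a G protein of the subunits encoded by Gnat2, Gnb3 and Gngt2. Transducin releases the phosphodiesterase of Pde6c from its inhibitory subunit, the product of Pde6h, and the fall in cyclic GMP closes the channel built from Cnga3 and Cngb3. Arr3 encodes the cone arrestin, which ends the activity of the opsin. Many mouse cones make both the short-wavelength opsin of Opn1sw and the middle-wavelength opsin of Opn1mw, in proportions that change from the ventral to the dorsal retina. Cones are a small minority of mouse photoreceptors, and rods use a parallel set of genes for the same steps.

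The sequences before the starts of both opsin genes and of Gnat2 are shown because the estimated changes of these genes differed in direction or in size. They are 250 bases from RefSeq on build GRCm38.p6, read 5′ to 3′ on the strand of the gene. Capitals mark TAATCC, the core bound by the photoreceptor factor CRX and by OTX2, and AGGTCA, the core bound by several nuclear receptors, each on either strand (GGATTA and TGACCT).
Opn1sw (chr6:29380514-29380763, minus strand): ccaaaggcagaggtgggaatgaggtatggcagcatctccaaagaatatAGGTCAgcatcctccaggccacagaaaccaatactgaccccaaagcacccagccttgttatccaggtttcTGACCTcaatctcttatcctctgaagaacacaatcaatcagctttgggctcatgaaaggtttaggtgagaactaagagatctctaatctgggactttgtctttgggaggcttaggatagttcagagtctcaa
Opn1mw (chrX:74127216-74127465, plus strand): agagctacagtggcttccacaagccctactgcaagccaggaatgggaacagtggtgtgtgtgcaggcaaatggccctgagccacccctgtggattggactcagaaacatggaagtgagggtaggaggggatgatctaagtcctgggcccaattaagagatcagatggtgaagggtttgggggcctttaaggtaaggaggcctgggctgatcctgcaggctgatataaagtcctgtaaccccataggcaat
Gnat2 (chr3:108092816-108093065, plus strand): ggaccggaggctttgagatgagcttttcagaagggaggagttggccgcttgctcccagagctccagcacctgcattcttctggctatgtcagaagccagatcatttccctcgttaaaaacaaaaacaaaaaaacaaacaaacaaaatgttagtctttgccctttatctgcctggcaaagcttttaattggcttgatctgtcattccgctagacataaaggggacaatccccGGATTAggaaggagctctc
The Opn1sw sequence held AGGTCA on the strand shown and TGACCT, its reverse complement, beginning 202 and 132 bases before the start. The Gnat2 sequence held GGATTA, the reverse complement of TAATCC, beginning 19 bases before the start. The Opn1mw sequence held neither motif. The starts are those of RefSeq, and the Opn1sw and Gnat2 sequences lie inside the spans of the counted genes given below. RefSeq entries were matched for 6 of the 10 genes, and each motif occurred in 1 of the 6. Over 32851 promoters of the same length, 6.25% held TAATCC and 14.02% held AGGTCA on either strand. A match of letters is a description and not a binding site.

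The question was how the RNA of these genes differed between explants kept in 25 mM and in 5 mM glucose. At 25 mM, 6 of the 10 cone genes had a higher and 4 a lower estimated level. Opn1mw rose 3.37-fold and was the 1 gene called at an FDR under 0.05 by the quasi-likelihood test of edgeR. Over all 21061 genes tested, 1.98% were called and 1.47% were called as higher. With the stricter rule of an FDR below 0.01 together with a change of more than 2-fold, 0 of the 10 were called, against 0.00% of all genes. At an unadjusted p under 0.05, 4 of the 10 passed, 3 of them higher, against 28.7% of all genes in either direction and 13.2% higher. The same 4 genes, Opn1sw, Opn1mw, Gnat2 and Pde6c, had an FDR under 0.1, as did 14.4% of all genes, and in the same 4 the 3 replicates of one group did not overlap with those of the other, as in 31.8% of all genes. The median log2 fold change of the 10 genes was 0.37, against -0.01 for all genes tested.

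**Figure D1:**
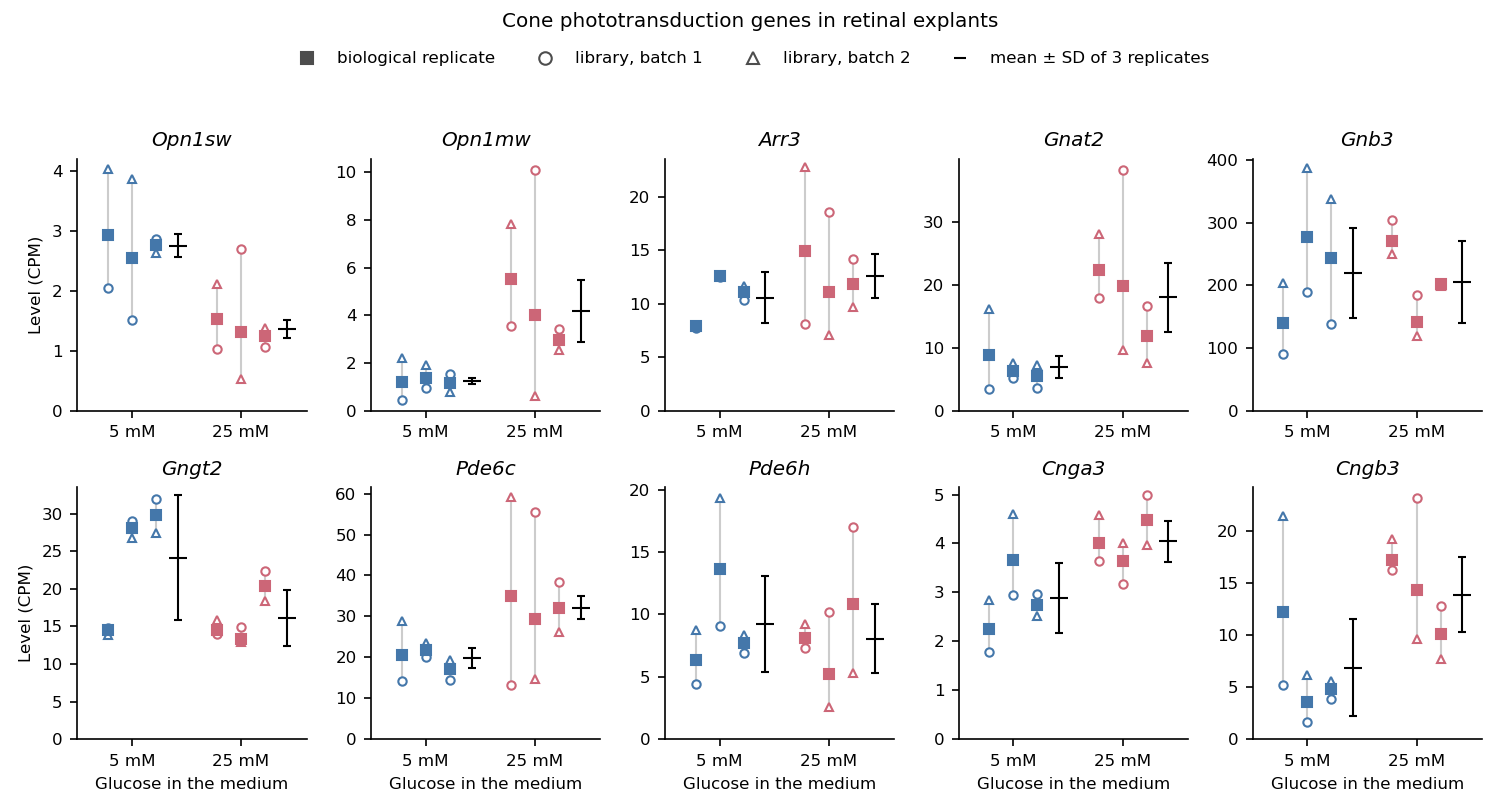
Level of each cone gene in CPM (linear axis from 0) at 5 mM (blue) and 25 mM glucose (red). Squares are biological replicates, open symbols their libraries of batch 1 (circles) and batch 2 (triangles), and the bar at the right of each group is the mean ± SD of 3 replicates. The replicates of Opn1sw, Opn1mw, Gnat2 and Pde6c do not overlap between the groups, and the libraries of 25 mM replicate 2 lie far apart in several panels.

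The estimates for the opsins lay in opposite directions. Opn1mw (ENSMUSG00000031394, chromosome X, 74127464 to 74150760 of GRCm38) had 1.19, 1.38 and 1.15 CPM in the replicates at 5 mM and 5.54, 4.02 and 2.98 CPM at 25 mM. All 3 values at 25 mM lay above the highest at 5 mM, and the log2 fold change was 1.75 (standard error 0.31, edgeR FDR 0.042). These levels rest on few reads, between 54 and 239 estimated counts per replicate. Opn1sw (ENSMUSG00000058831, chromosome 6, 29376671 to 29388468) had 2.94, 2.56 and 2.77 CPM at 5 mM and 1.53, 1.31 and 1.24 CPM at 25 mM. Here all 3 values at 25 mM lay below the lowest at 5 mM, with a log2 fold change of -1.01 (standard error 0.26) and an edgeR FDR of 0.0704, which missed the threshold. Its replicates held 48 to 163 estimated counts, and its exons share 397 bases with Calu on the opposite strand, so part of its counts is uncertain because the use of strand in counting is not stated.

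Set against each other within a library, the opsins exchanged rank. The log2 ratio of Opn1sw to Opn1mw counts was 1.30, 0.88 and 1.26 in the replicates at 5 mM and -1.85, -1.60 and -1.26 at 25 mM. The means were 1.15 ± 0.23 and -1.57 ± 0.30 (SD, n = 3 each), a difference of -2.72, and a two-sided exact permutation test gave p = 0.1, the smallest value that 3 against 3 allows. The ratio was above 0 in 6 of 6 libraries at 5 mM, from 0.69 to 2.25, and below 0 in 6 of 6 libraries at 25 mM, from -1.88 to -0.16. The library at -0.16, the second of 25 mM replicate 2, held 12.4 Opn1sw and 13.9 Opn1mw counts, so its sign is uncertain. The difference was -3.02 in batch 1 and -2.19 in batch 2 (exact permutation p = 0.1 in each). Library size cancels in this ratio. Without 5 mM replicate 1, second library, and 25 mM replicate 2, second library, the difference between the groups was -3.12.

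**Figure D2:**
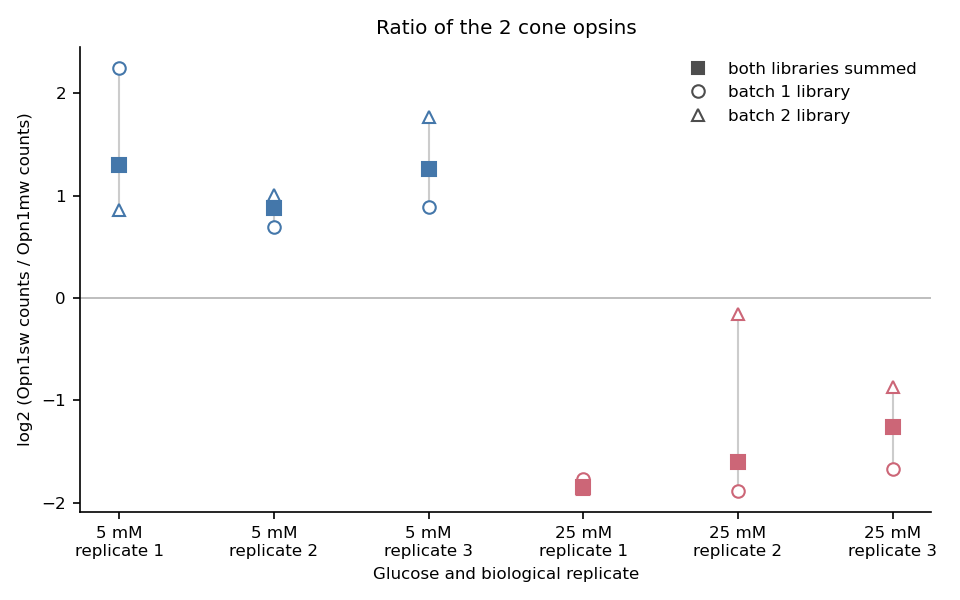
Log2 ratio of Opn1sw to Opn1mw estimated counts in each biological replicate (squares, both libraries summed) and in its batch 1 (circles) and batch 2 (triangles) libraries, at 5 mM (blue) and 25 mM glucose (red). All 6 libraries at 5 mM lie above 0 and all 6 at 25 mM below it, the nearest at -0.16 in the second library of 25 mM replicate 2. That library held 12.4 Opn1sw and 13.9 Opn1mw counts.

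Scaled to transcript length and library size, as TPM from the deposited transcript counts, Opn1sw had 2.64 ± 0.081 and Opn1mw 2.17 ± 0.314 TPM at 5 mM (SD, n = 3). At 25 mM they had 1.43 ± 0.235 and 8.09 ± 2.87 TPM. The 3 values of Opn1sw at 5 mM, 2.54 to 2.68 TPM, and those of Opn1mw, 1.97 to 2.53 TPM, nearly met, whereas at 25 mM the highest Opn1sw value was 1.70 and the lowest Opn1mw value 5.86 TPM.

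Cone arrestin did not pass the test. Arr3 (ENSMUSG00000060890, chromosome X, 100605497 to 100618493) had 7.93, 12.6 and 11.1 CPM at 5 mM and 15.0, 11.1 and 11.8 CPM at 25 mM. The groups overlapped, and the log2 fold change was 0.26 (standard error 0.26, edgeR FDR 0.521).

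The subunits of cone transducin differed among themselves. Gnat2, the alpha subunit that carries the signal (ENSMUSG00000009108, chromosome 3, 108092789 to 108101432), had 8.89, 6.25 and 5.53 CPM at 5 mM and 22.3, 19.8 and 11.9 CPM at 25 mM. The groups did not overlap, and the log2 fold change of 1.39 (standard error 0.31) missed the threshold with an edgeR FDR of 0.0594. Gnb3, the beta subunit, which ON bipolar cells also make (ENSMUSG00000023439, chromosome 6, 124834240 to 124840275), had 139, 277 and 243 CPM at 5 mM and 271, 141 and 203 CPM at 25 mM. Its values overlapped almost entirely, with a log2 fold change of -0.10 (standard error 0.31, edgeR FDR 0.849). Gngt2, the gamma subunit (ENSMUSG00000038811, chromosome 11, 95837216 to 95845734), had 14.6, 28.2 and 29.8 CPM at 5 mM and 14.5, 13.4 and 20.4 CPM at 25 mM. The first replicate at 5 mM lay among the values at 25 mM, and the log2 fold change was -0.59 (standard error 0.31, edgeR FDR 0.244). Its exons share 234 bases with Abi3 on the opposite strand, so part of its counts is uncertain, as for Opn1sw.

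Of the phosphodiesterase, Pde6c, the catalytic subunit (ENSMUSG00000024992, chromosome 19, 38132781 to 38183958), had 20.6, 21.7 and 17.1 CPM at 5 mM and 35.0, 29.3 and 32.1 CPM at 25 mM. The groups did not overlap, and the log2 fold change was 0.70 (standard error 0.19) with an edgeR FDR of 0.0735. Pde6h, the inhibitory subunit (ENSMUSG00000064330, chromosome 6, 136923832 to 136968865), had 6.36, 13.6 and 7.74 CPM at 5 mM and 8.09, 5.25 and 10.8 CPM at 25 mM. The groups overlapped, with a log2 fold change of -0.20 (standard error 0.38, edgeR FDR 0.749). Its exons share 136 bases with Arhgdib on the opposite strand, so part of its counts is uncertain, as for Opn1sw.

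Neither channel subunit passed the test, although both had a higher mean at 25 mM. Cnga3, the pore-forming alpha subunit (ENSMUSG00000026114, chromosome 1, 37214434 to 37263384), had 2.26, 3.67 and 2.74 CPM at 5 mM and 4.01, 3.64 and 4.48 CPM at 25 mM. The highest replicate at 5 mM lay just above the lowest at 25 mM, and the log2 fold change was 0.49 (standard error 0.28, edgeR FDR 0.28). Cngb3, the beta subunit (ENSMUSG00000056494, chromosome 4, 19280850 to 19510623), had 12.2, 3.60 and 4.79 CPM at 5 mM and 17.2, 14.3 and 10.1 CPM at 25 mM. The first replicate at 5 mM lay among the values at 25 mM, and the log2 fold change was 1.01 (standard error 0.46, edgeR FDR 0.188).

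The levels of the genes of 1 pathway spanned a wide range per length. At 5 mM, Gnb3 stood highest with 266 ± 95.9 TPM, followed by Gngt2 with 74.4 ± 27.2 TPM, and the replicates of these genes did not overlap with each other or with the next. Arr3 (16.6 ± 4.38 TPM) and Pde6c (13.6 ± 1.91 TPM) overlapped. Gnat2 (8.84 ± 2.10 TPM) and Pde6h (8.62 ± 4.02 TPM) overlapped as well. Cngb3, Opn1sw, Opn1mw and Cnga3 were lowest, with means from 1.60 to 2.70 TPM. At 25 mM the order of the middle ranks was Gnat2 (25.4 ± 8.35 TPM), Pde6c (24.1 ± 4.10 TPM) and Arr3 (21.3 ± 5.10 TPM), all overlapping, and Opn1sw was lowest with 1.43 TPM. Gnb3 alone supplied between 58.0% and 74.7% of the summed CPM of the 10 genes. Without it, the sum was 77.0, 93.6 and 82.7 CPM at 5 mM and 123, 102 and 106 CPM at 25 mM.

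The libraries of 1 biological replicate differed widely in some replicates. Between the libraries of 25 mM replicate 2, the second was lower in 9 of the 10 genes, with a median log2 ratio of -1.48. In that replicate Opn1mw had 10.1 CPM in the first library and 0.62 CPM in the second, Gnat2 38.2 and 9.64 CPM, and Pde6c 55.6 and 14.8 CPM. In 5 mM replicate 1, the second library was higher in 9 of the 10 genes, with a median log2 ratio of 0.96. There Gnat2 had 3.43 CPM in the first library and 16.1 CPM in the second, and Cngb3 5.24 and 21.4 CPM. In 5 mM replicate 3 the median log2 ratio was 0.21.

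The change was larger in size in batch 1 than in batch 2 in 7 of the 10 genes, larger in batch 2 in Opn1sw and Pde6h, and equal to 2 decimals in Gnb3. The log2 fold change of Gnat2 was 2.54 in batch 1 (edgeR FDR 0.00933) and 0.52 in batch 2 (FDR 0.672). For Cngb3 it was 2.25 (edgeR FDR 0.0169) and 0.10 (FDR 0.945), and for Opn1mw 2.52 (edgeR FDR 0.0276) and 1.14 (FDR 0.545). These were the 3 cone genes called in batch 1, where 17.3% of all genes were called, and 0 were called in batch 2, where 0.00% of all genes were called. Opn1sw was lower in both batches, by 0.47 and 1.40 on the log2 scale. Gnb3 and Pde6h changed sign between batches, with 0.71 and 0.73 in batch 1 and -0.71 and -1.11 in batch 2. The batch by glucose term, fitted on the 12 libraries with the biological replicate as a block, was under an unadjusted p of 0.05 in 4 of the 10 cone genes, Gnat2, Gnb3, Pde6h and Cngb3, against 16.3% of 18725 genes, and after adjustment in 0 of them (edgeR, lowest FDR 0.126 for Gnb3) and in 0.00% of all genes. The markers of ON bipolar cells had a median log2 fold change of 0.54 in batch 1 and -0.64 in batch 2, the same signs as Gnb3, and their part in the result for Gnb3 was not tested.

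**Figure D3:**
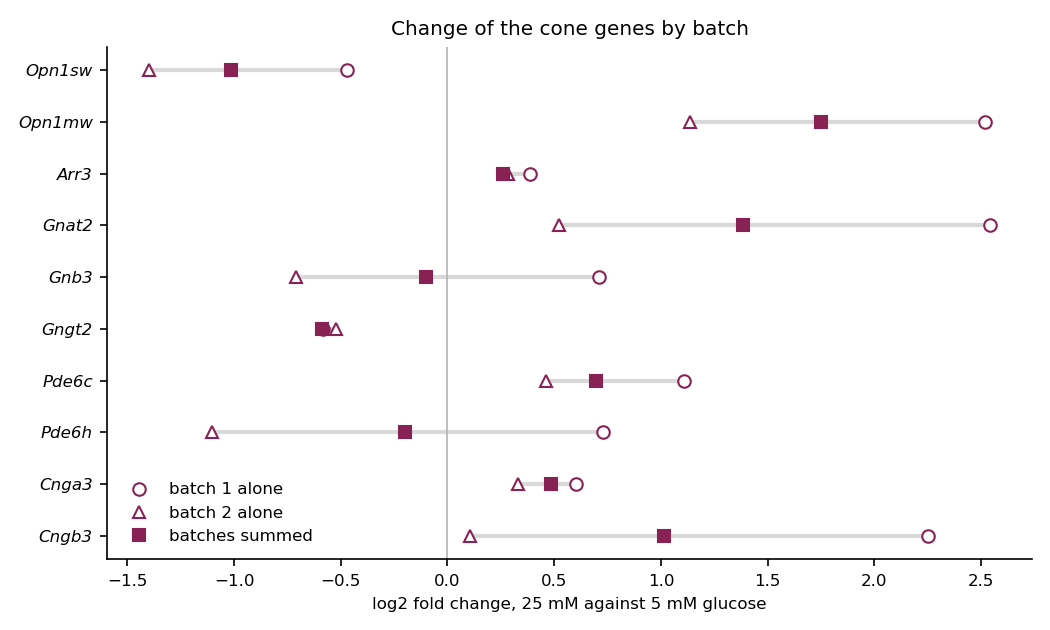
Log2 fold change of each cone gene, 25 mM against 5 mM glucose, in batch 1 alone (circles), in batch 2 alone (triangles) and with the batches summed (squares). Gnb3 and Pde6h lie on opposite sides of 0 in the batches, from 0.71 to -0.71 and from 0.73 to -1.11, whereas Opn1sw is below 0 and Opn1mw above 0 in both.

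The call of Opn1mw also depended on single libraries. It had an FDR of 0.264 without the first library of 25 mM replicate 2 and 0.0653 without the second, and between 0.0169 and 0.18 when each biological replicate was left out in turn (edgeR). Its log2 fold change stayed above 0 in all 25 other settings, from 1.14 to 2.59, and it was called in 16 of them. Gnat2 was called in 11 of the 25 settings and was above 0 in all of them, from 0.52 to 2.54. Opn1sw was below 0 in all 25, from -1.40 to -0.47, and was called in 2. Without the second libraries of 5 mM replicate 1 and 25 mM replicate 2, the log2 fold change was 2.59 for Opn1mw (edgeR FDR 0.0506), 2.21 for Gnat2 (FDR 0.0439), 1.85 for Cngb3 (FDR 0.0429), 1.18 for Pde6c (FDR 0.0575) and -0.49 for Opn1sw (FDR 0.398). In that setting 2 of the 10 genes, Gnat2 and Cngb3, were called, against 3.21% of all genes.

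The 8 cone genes other than the opsins were then set beside the rod genes of the same steps. The RNA was of whole retinas, so these levels include RNA from any other cells that make the genes. The part of such cells was not tested. The log2 fold changes of the 9 rod genes examined were all above 0 (median 1.06). Of the 9, 3 were called at an FDR under 0.05, against 1.98% of all genes. These were Cnga1, the rod channel alpha subunit (2.12, standard error 0.29, edgeR FDR 0.0261), Pde6b (1.65, standard error 0.18, FDR 0.0217) and Pde6a (1.06, standard error 0.16, FDR 0.0325), the catalytic subunits of the rod phosphodiesterase. Gngt1 (1.51, edgeR FDR 0.0504), Sag, the rod arrestin (1.13, FDR 0.0581), Gnb1 (0.55, FDR 0.154) and Cngb1 (0.69, FDR 0.178) did not pass the test. Nor did Gnat1 (0.45, edgeR FDR 0.308) and Pde6g (0.24, FDR 0.693).

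The ratio of cone to rod counts within a replicate was lower at 25 mM in 6 of the 8 pairs, with a median difference of -0.59 on the log2 scale. The median log2 fold change was 1.06 for the rod genes, 0.37 for the 10 cone genes and -0.01 for all genes tested. A gene with no change would also be lower relative to each of these rod genes. How often other genes fell relative to them was not tested. The lowest adjusted p was 0.16 over the 8 pairs (exact permutation test with Benjamini-Hochberg adjustment), and with 3 against 3 no single pair could go below 0.1. For Gngt2 against Gngt1 the log2 ratio was -4.22, -2.33 and -2.39 at 5 mM and -5.08, -5.72 and -4.38 at 25 mM, a difference of -2.08. For Cnga3 against Cnga1 it was -5.85, -4.42 and -4.70 at 5 mM and -6.78, -7.02 and -6.09 at 25 mM, a difference of -1.64. In both pairs every replicate at 25 mM lay below every replicate at 5 mM.

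Arrestin showed the narrowest spread at 5 mM. The log2 ratio of Arr3 to Sag was -4.88, -4.91 and -5.03 at 5 mM and -5.84, -6.00 and -5.58 at 25 mM, a difference of -0.87, with -0.97 in batch 1 and -0.68 in batch 2. Gnat2 against Gnat1 differed by 0.89, the replicates overlapping, and by -0.41 in batch 2 alone. For Gnb3 against Gnb1 the difference was -0.65, for Pde6c against Pde6a -0.36, for Pde6h against Pde6g -0.52 and for Cngb3 against Cngb1 0.49, and each of these changed sign in 1 of the batches.

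**Figure D4:**
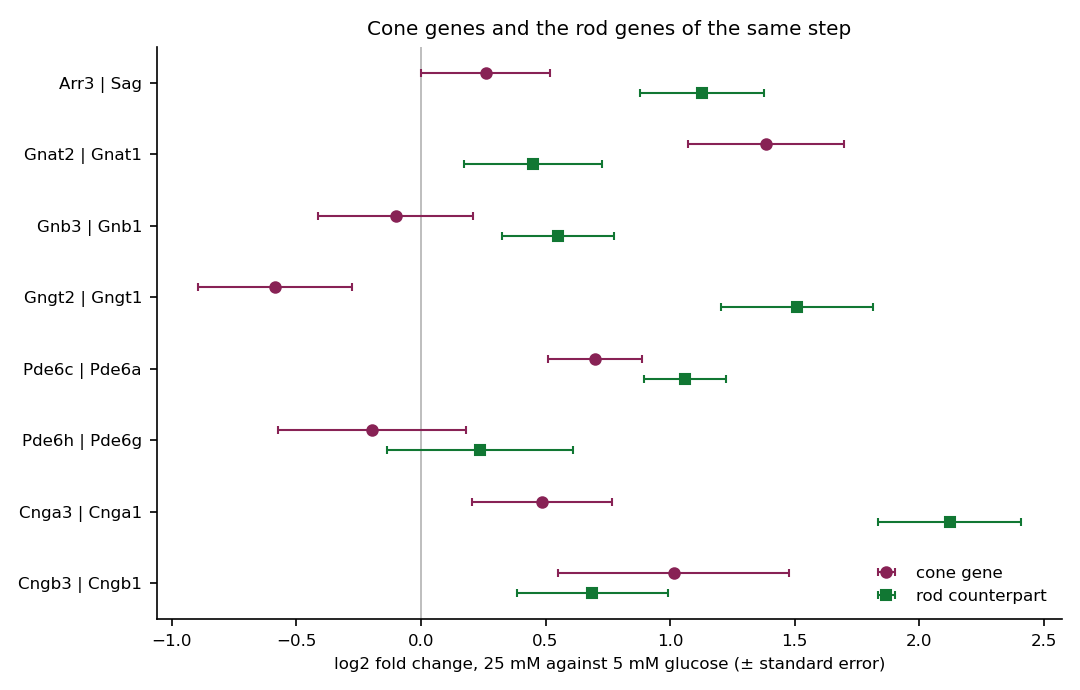
Log2 fold change (± standard error, edgeR) of 8 cone genes (circles) and of the rod gene of the same step (squares), 25 mM against 5 mM glucose. All rod genes lie above 0, and the cone gene lies to the left of its rod counterpart in 6 of the 8 pairs. The median over all genes tested was -0.01.

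The transcript table held 45 annotated transcripts of the cone genes, of which 31 were tested. At an FDR under 0.05, 0 of them were called, as were 0.00% of 64990 transcripts (edgeR, lowest FDR 0.0762), and 7 of the 31 had an unadjusted p under 0.05, against 16.4% of all. The main coding transcript Opn1mw-201 went from 102 to 410 counts summed over the replicates (log2 fold change 2.18, standard error 0.34). The coding Opn1sw-201 went from 233 to 125 counts (-0.68, standard error 0.59) and the coding Opn1sw-203 from 154 to 41 (-1.79, standard error 0.76). Of Pde6c, the coding transcripts Pde6c-201 and Pde6c-202 had log2 fold changes of 0.49 and 0.81.

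The counts of some cone genes lay largely on transcripts that keep an intron and are not annotated as coding. The libraries were made from total RNA, and the part of unspliced RNA in these counts was not tested. Of the Gnb3 counts, 61.1% ± 13.3 at 5 mM and 71.8% ± 3.09 at 25 mM lay on retained-intron transcripts (SD, n = 3). Most of them lay on Gnb3-202, which had 16977 and 15718 counts in all (log2 fold change 0.01, standard error 0.27). The coding Gnb3-201 had 12544 counts at 5 mM and 6702 at 25 mM (log2 fold change -0.83, standard error 0.55, edgeR FDR 0.478). The level given for Gnb3 above includes these retained-intron transcripts.

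The share of counts on coding transcripts was examined after its values were seen. In Arr3 it was 50.0%, 65.5% and 64.4% at 5 mM and 35.2%, 43.0% and 43.4% at 25 mM, with no overlap between the groups and an exact permutation p of 0.1, the smallest possible. Over 9543 genes with both kinds of transcript, 27.3% did not overlap, 25.6% with a lower share at 25 mM, and the median difference was -1.60 percentage points. The coding Arr3-201 went from 938 to 599 counts (log2 fold change -0.52, standard error 0.32) while the retained-intron Arr3-202 went from 301 to 477 (0.81, standard error 0.32, edgeR FDR 0.286). In Gnat2 the coding share was 61.7% ± 9.77 and 53.4% ± 5.88, in Gnb3 36.9% ± 12.7 and 25.7% ± 2.71 and in Pde6h 85.7% ± 7.06 and 79.4% ± 2.20 (SD, n = 3), and the groups overlapped in these 3 genes.

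**Figure D5:**
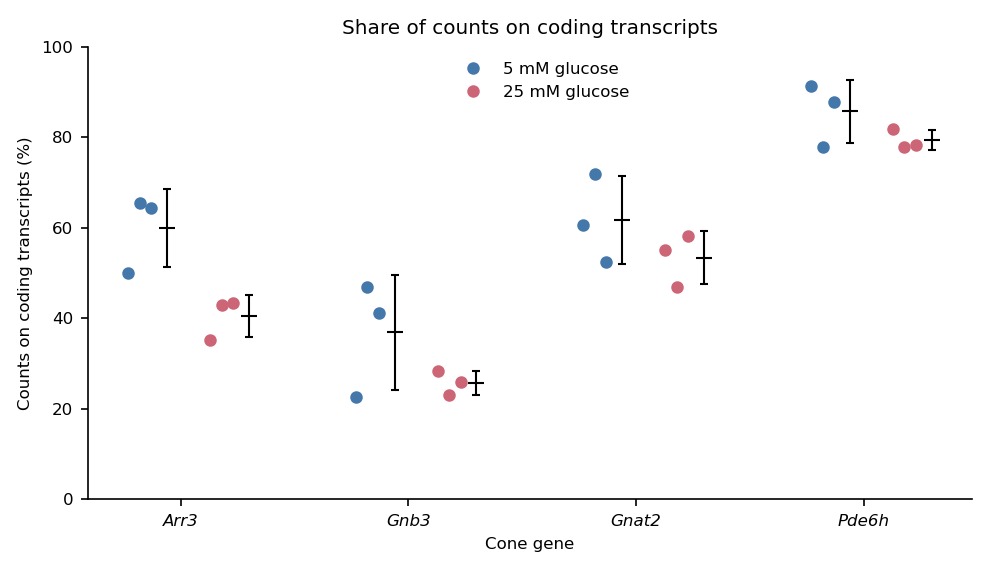
Percent of the estimated counts of Arr3, Gnb3, Gnat2 and Pde6h that lay on transcripts annotated as coding, for each of 3 replicates at 5 mM (blue) and 25 mM glucose (red), with the mean ± SD in black. The groups are apart in Arr3, 50.0% to 65.5% against 35.2% to 43.4%, and overlap in the other genes.

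Genes of the cone response, mainly of its shutoff and recovery and most of them shared with rods, were listed beside the members. Their levels are of the whole retina and not of cones alone. All 14 were tested and had estimates above 0, with a median log2 fold change of 1.07. Of the 14, 8 were called as higher, against 1.47% of all genes. The highest change was 3.13 in Gucy2f (standard error 0.57, edgeR FDR 0.0425), a photoreceptor guanylate cyclase that remakes cyclic GMP. Gucy2e, the cyclase that cones rely on, had 1.97 (standard error 0.25, edgeR FDR 0.0261), and Grk1, the kinase that phosphorylates active opsin, 2.16 (standard error 0.23, FDR 0.0217). Rgs9 (2.14) and Rgs9bp (1.96), parts of the complex that switches transducin off, and Pdc (1.61), which binds transducin beta and gamma subunits, each had an FDR of 0.0261. Pde6d, which carries prenylated proteins to the outer segment, was lowest with 0.01 (FDR 0.959).

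Of 12 transcription factors of cone identity and photoreceptor fate, 9 were above 0 and 2 were called as higher, against 1.47% of all genes. These were Neurod1 (2.08, standard error 0.40, edgeR FDR 0.0461) and Crx (1.33, standard error 0.22, FDR 0.0348), a factor that rods and cones need for their opsin genes. Thrb, named after its value was seen, encodes the thyroid hormone receptor that cones use to make the middle-wavelength opsin and to hold back the short-wavelength one. Its log2 fold change was 1.27 (standard error 0.26), and its edgeR FDR of 0.0512 missed the threshold. Whether Thrb had a part in the opsin results was not tested. Rxrg, a retinoid receptor of cones and the lowest of the list, had -0.80 (standard error 0.34, edgeR FDR 0.168) at 2.20 and 1.26 CPM. Sall3 (-0.79, edgeR FDR 0.172) and Onecut1 (-0.22, FDR 0.718), also named after their values were seen, were below 0 as well. Of the 4 rod factors listed, all were called as higher, against 1.47% of all genes: Nrl (1.33), Nr2e3 (0.99), Samd7 (1.34) and Samd11 (1.51), with FDR values from 0.0261 to 0.0423.

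Markers of other cell types were measured in the same libraries. All 8 microglial markers and 7 of 8 vascular markers were below 0, with medians of -1.08 and -1.66, and 0 were called at an FDR under 0.05 (edgeR). Of these lists, 5 and 6 markers had an unadjusted p under 0.05, against 28.7% of all genes. Their summed levels ranged from 275 to 370 CPM at 5 mM and from 111 to 216 CPM at 25 mM for microglia, and from 1203 to 2034 CPM and 614 to 1089 CPM for vascular cells. Those of ON bipolar cells (median -0.04, 4 of 10 above 0), Mueller glia (0.15, 4 of 8), amacrine cells (-0.15, 3 of 8) and ganglion cells (0.22, 6 of 8) had 0 called genes in each list (edgeR). At an unadjusted p under 0.05 there were 3 ON bipolar markers, all lower, 2 of Mueller glia, both higher, 4 of amacrine cells, 3 of them lower, and 1 of ganglion cells, lower. The summed ON bipolar level was 1624 to 1773 CPM at 5 mM and 1311 to 1482 CPM at 25 mM, and that of amacrine cells 455 to 544 CPM and 281 to 415 CPM, so that the groups did not overlap in either. The lists ran from Tmem119 (-1.54) to P2ry12 (-0.25) for microglia, from Pdgfrb (-2.46) to Rgs5 (0.09) for vascular cells and from Pcp2 (-0.97) to Grm6 (0.53) for ON bipolar cells. They ran from Glul (-0.35) to Abca8a (0.87) for Mueller glia, from Slc32a1 (-1.61) to Chat (1.94) for amacrine cells and from Rbpms (-1.68) to Slc17a6 (1.26) for ganglion cells. Of the retinal pigment epithelium, 6 of 8 markers were tested, from Tyrp1 (-1.80) to Rgr (1.41), and 0 were called. No listed marker was at 0 in all replicates, and the part of these cells in the cone results was not tested.

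Across the 12 libraries, the levels of the cone genes varied partly together. Of 45 pairs, 39 had a Pearson correlation of log2 CPM above 0, with a median of 0.38, as a description of libraries that share depth, batch and glucose. The highest value was 0.87 between Gnat2 and Cngb3 and the lowest -0.72 between Gngt2 and Cngb3. Among 16411 other genes, those most like the mean standardised level of the cone genes were Cdan1 (r = 0.94), Lmln (0.92), Rhot2 (0.92), Lin7b (0.91), Klc2 (0.91) and Arl3 (0.90). Arl3, a small GTPase that releases lipid-modified proteins in photoreceptor outer segments, had 53.8 and 60.3 CPM in the groups and a log2 fold change of 0.16 (edgeR FDR 0.508).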

How the data were processed

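RNA-seq of retinal explants at 5 mM and 25 mM glucose was analysed, and the CUT&Tag part was not used. The authors deposited expected counts (estimated counts, which need not be whole) per gene and per transcript for 12 libraries, without normalization. The libraries were made with a stranded total RNA kit. The aligner, counter and use of strand in counting are not given in the sources used here, and the submitters' processing notes name GRCm38. Symbols, positions and transcript types came from GENCODE M21 and matched 48766 of 53707 gene identifiers (90.8%), with 99.2% to 99.6% of counts.

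Technical replicates were summed and rounded, since libraries of 1 replicate are not independent samples. In edgeR 4.0.16 (R 4.3.3), TMM factors and the filterByExpr filter were applied to these sums, and groups were compared with its quasi-likelihood test as in version 3, with Benjamini-Hochberg adjustment over 21061 genes. The thresholds were an FDR under 0.05, and an FDR under 0.01 with more than a 2-fold change, as in the study. CPM use TMM factors, log2 CPM a prior count of 2, and ratios of counts a pseudocount of 0.5 and an exact permutation test. Coding shares used genes with at least 100 transcript counts in every replicate. Library totals limit counting error only. The procedure was tested on simulated data. The labels do not say that replicate numbers pair the groups, and the main test did not pair them.

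The genes and lists were chosen with earlier results of these data known. Genes named were the 10 members, their rod counterparts (the results of 1 gene are not reported here), in each other list up to 5 called genes and those with the highest and lowest log2 fold change, and the 6 genes most alike with a mean of at least 1 CPM. Alternatives covered normalization, filters, tools (DESeq2 1.42.0, limma 3.58.1), batches, a replicate block, GC content and length, and left-out libraries and replicates; leaving out the second library of 25 mM replicate 2, alone or with that of 5 mM replicate 1, was added after seeing the data.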

Additional observations from a re-analysis of the deposited data

Results flagged for a closer look

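Among the 6 libraries of a group, 3 values of cone genes stood further from the nearest other library than Dixon's 95% critical value allows. These were Gnat2 at 16.1 CPM and Cngb3 at 21.4 CPM in the second library of 5 mM replicate 1, and Pde6h at 19.4 CPM in the second library of 5 mM replicate 2. In all, 20 groups were examined, of which chance flags about 1 in 20, and the libraries of 1 biological replicate are not independent. Without the second library of 5 mM replicate 1, the edgeR FDR was 0.028 for Gnat2 and 0.0284 for Cngb3.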

How the results depend on the processing

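The number of cone genes called at an FDR under 0.05 was 1 of 10 in edgeR. Percents in brackets are the share of all genes called in the same setting. The number was 4 with DESeq2 (16.6%), 2 without a filter on low counts (5.63%), 3 in batch 1 alone (17.3%) and 0 in batch 2 alone (0.00%). It was 3 with a correction for GC content and length (12.4%) and 4 without the second library of 5 mM replicate 1 (8.27%). It was 0 without the first (0%) and 0 without the second library of 25 mM replicate 2 (0.802%), and 2 without the second libraries of both replicates (3.21%). With each biological replicate left out it ranged from 0 to 6, the 6 without 5 mM replicate 1 (26.6%). Under the stricter rule (FDR 0.01 and 2-fold) the count of 0 became 3 with DESeq2, 1 in batch 1 alone and 1 with the block and GC correction, against 1387 of 21061, 367 of 18969 and 535 of 20307 genes. The median log2 fold change of 0.37 was 0.72 in batch 1 alone, 0.19 in batch 2 alone and 0.21 to 0.54 with a replicate left out. In 8 other settings the count at an FDR under 0.05 was 1 again (1.66% to 15.6% of all genes). The gene was Opn1mw in 7 of them and Gnat2 with 12 libraries and a batch term (edgeR FDR 0.0462, against 0.051 for Opn1mw). In all 10 settings for transcripts, 0 were called.

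With the replicate number as a block, 2 cone genes were called (4.70% of all genes), and 3 with the GC and length correction as well (15.2%). With the block alone the opsin ratio differed by -2.72 (exact permutation p = 0.25, the smallest value that 3 pairs allow), and the median log2 fold change was 0.39. The block moved the count over all genes from 417 to 990. The labels do not say that the numbers pair the samples. Deviations of same-numbered replicates correlated at -0.01, -0.45 and 0.28. Only 5 mM replicate 3 correlated best with its own number. For 5 mM replicate 1 the best was 25 mM replicate 2 (0.51), and for 5 mM replicate 2 it was 25 mM replicate 3 (0.32). With 3 replicates in each group, these values cannot decide whether the samples were paired.

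Over all genes, 417 were called, against 3489 with DESeq2, 1979 without a filter, 2918 with 12 libraries and a batch term, 3279 in batch 1 and 0 in batch 2, 2511 with the GC correction and 3093 with the block as well. Without the second library of 5 mM replicate 1 there were 1731, without the first of 25 mM replicate 2 0, without the second 169, without the second of both 674, and with a replicate left out 0 to 5845.

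Gnb3 (main log2 fold change -0.10) turned to 0.014 with 12 libraries, 0.71 in batch 1, 0.32 with the GC correction, 0.29 with the block as well, 0.0062 without the second library of 5 mM replicate 1, 0.09 without the second libraries of both replicates, and -0.35 to 0.12 with a replicate left out. Pde6h (-0.20) turned to 0.73 in batch 1, 0.37 with transcript counts, 0.05 without the second library of 25 mM replicate 2, 0.15 without both second libraries, and -0.47 to 0.18 with a replicate left out. Ratios to the rod gene turned in batch 1 to 0.34 for Gnb3, 0.086 for Pde6c and 0.42 for Pde6h, in batch 2 to -0.41 for Gnat2 and -0.23 for Cngb3, and for Cngb3 ranged from -0.075 (without 5 mM replicate 2) to 1.30 with a replicate left out. The causes were not tested.

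Opn1sw, Opn1mw and Cnga3 had under 250 counts per replicate, with standard errors of 0.26, 0.31 and 0.28. Over all 10 genes, these included, the standard errors ran from 0.19 to 0.46.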
